A study of Mus musculus with 6 samples.

Results

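The G-quadruplex motif set held 426 of the 8040 new lncRNAs assembled from mouse cortex RNA in a study of subarachnoid haemorrhage (SAH), or 5.30% (Wilson 95% interval 4.83 to 5.81). A record was a member when its RNA sequence as deposited held 4 runs of at least 3 guanines, with neighbouring runs parted by loops of 1 to 7 nucleotides of any base. The rule read the sequence alone and used no expression value and no structure. The records were pooled over 6 RNA-seq libraries, with 3 libraries in the control group and 3 in the group taken 24 h after SAH, and each library came from the cortex of 3 pooled mice. All are labelled as wild-type C57BL/6 mice, and the study's methods describe adult males of C57BL/6 J. The controls are labelled as normal and, per the study's methods, had the operation without the perforation of the artery that produces SAH, so neither group was without surgery. The tissue was cortex near the bleeding, a mixture of neurons, glia and vessel cells, and the records hold no cell type markers that could check it. No record has separate values for the libraries, so control and SAH were not compared here and the depth behind each record is unknown.

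A G-quadruplex is a fold in which guanines from separate runs sit in flat tetrads, stacked around potassium ions. In RNA it competes with ordinary stems, because the same guanines can pair with cytosine or uracil instead. Such folds are known from telomeric repeats, from gene promoters and from the untranslated parts of mRNAs, and helicases of the cell unwind them. Short loops and long runs are known to make the fold more stable, whereas a match to the motif alone does not show that the fold forms in a cell.

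The stretches below show the range of the motif among the members, with the G runs in capitals and the loops in lower case. Each is written in the direction of its deposited sequence. They are the stretches of the member with the longest G run, of a member with a tandem repeat, of a member with the highest score for G richness, and of the member with the most separate stretches.
TCONS_00089612: GGGGGGGGGGGGGGGGGGGG
TCONS_00101665: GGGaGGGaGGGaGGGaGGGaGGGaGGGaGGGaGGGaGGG
TCONS_00223528: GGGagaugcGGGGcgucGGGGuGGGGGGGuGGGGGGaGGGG
TCONS_00197204 (first): GGGGcaGGGGuGGGGuGGGG
TCONS_00197204 (second): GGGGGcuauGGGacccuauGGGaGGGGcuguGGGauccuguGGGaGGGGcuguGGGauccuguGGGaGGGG
TCONS_00197204 (last): GGGaGGGGcuguGGGacccuguGGGaGGGG

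The next sequences carry the result on pairing. Each is a motif stretch with 10 nucleotides of its record on either side, and under it stands the deposited secondary structure, in which brackets are paired bases and points are unpaired ones. Many partners lie outside the stretch shown, so the brackets do not balance. TCONS_00155990 had the lowest share of paired motif G of all members (6 of 20), and TCONS_00213647 was among those in which every motif G was paired (25 of 25).
TCONS_00155990: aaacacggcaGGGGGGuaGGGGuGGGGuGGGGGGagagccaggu
TCONS_00155990 structure: ...(...((......))..).)))..))).....((.(((((((
TCONS_00213647: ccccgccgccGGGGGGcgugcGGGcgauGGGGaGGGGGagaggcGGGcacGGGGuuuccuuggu
TCONS_00213647 structure: ))))))))..((((((((...(((...((((((((((((((((.((((((((((((.((.(((.

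The motif stood on the deposited strand and on its reverse complement, a control with the same length and GC content, in nearly equal numbers of records. On the reverse complement 418 of 8040 records held it (5.20%, interval 4.73 to 5.71), against 426 on the deposited strand. The motif stood on both strands of 38 records, so 806 held it on at least 1 strand. Among the 768 records with the motif on 1 strand only, it was on the deposited strand in 388 (50.5%, exact Clopper-Pearson 95% interval 46.9 to 54.1), and this interval includes an even split. Under 3 wider patterns, runs of at least 2 G or a mean G4Hunter score (a measure of G richness over C, here in 25 nt) of at least 1.2 or 1.5, shares of 51.8 to 52.5% had intervals just above an even split. All intervals cover counting error only and treat records as independent, which overlapping records are not. The library protocol in the labels marks cDNA strands with deoxy-UTP, but the deposited records do not state a strand, and whether a sequence as deposited is the transcribed strand was examined only for the records beside known gene starts, described further on.

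The share of records with the motif rose with GC content on both strands. Of the records under 35% GC, 1.59% (14 of 882) held it on the deposited strand and 2.49% on the complement. The shares were 4.31% and 3.90% between 40 and 45% GC, and 14.7% and 12.5% between 50 and 55%. At 55% GC or more they were 23.2% (29 of 125) and 21.6%. Counted per length, the stretches went from 12.5 per megabase of sequence in the lowest GC class to 299 in the highest on the deposited strand. Because the motif needs guanine, part of this slope is fixed by the rule.

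**Figure D1:**
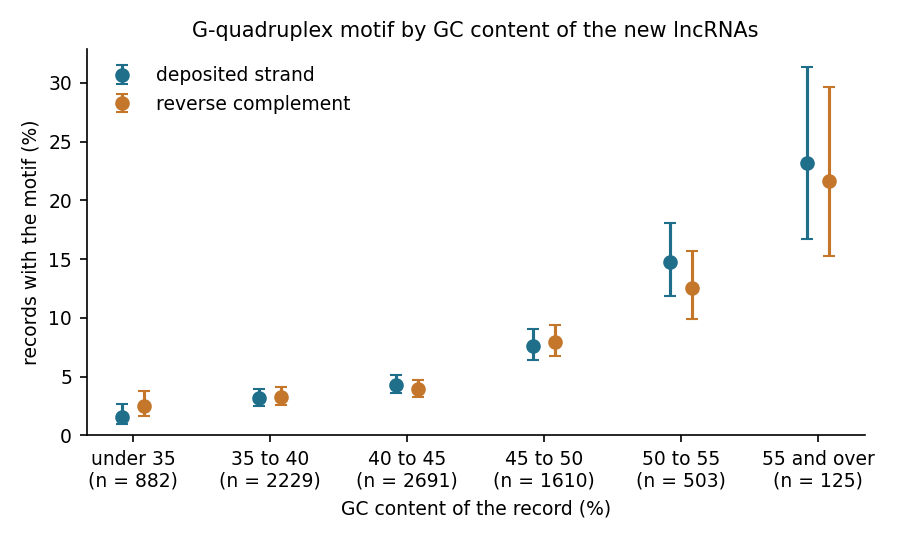
Share of new lncRNA records that held the G-quadruplex motif (vertical axis, percent of records, with Wilson 95% intervals) in 6 classes of GC content (horizontal axis, percent), for the sequence as deposited and for its reverse complement. Both strands rose together, from 1.59% and 2.49% in the lowest class to 23.2% and 21.6% in the highest.

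Longer records held the motif more often. In 4 equal classes of records from the shortest to the longest, the share was 2.64, 4.28, 6.12 and 8.13% on the deposited strand, and 2.69, 4.73, 5.37 and 7.99% on the complement. The members had a median length of 1326.5 nt (range 247 to 9090), against 1117 nt for all records, and a median GC content of 45.5% against 41.6%. As the rule favours, their guanines outnumbered their cytosines, with a median excess of 4.38% of all G and C, while records with the motif on the complement had a median of -3.91%. The ratio of observed to expected CpG dinucleotides, which is low in most of the mouse genome and high in CpG islands, had a median of 0.203 in members and 0.181 in all records. Records with the motif on the complement were close to the members in length, GC content and this ratio, with medians of 1317 nt, 45.5% and 0.195.

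Most members had a single place that matched. There were 450 separate stretches in all, 403 members had 1, 22 had 2, and TCONS_00197204 had 3. The stretches were 15 to 71 nt long, with a median of 25. They held 1920 G runs, of which 57.4% were 3 G long, 23.9% were 4 and 10.1% were 5. The longest run was 20 G, in TCONS_00089612, whose stretch is a single unbroken run. In 375 members (88.0%) a stretch held at least 4 runs set apart by another base, and in the other 51 the rule was met because a longer run was divided, with G in the loop. On the complement, 354 of 418 records (84.7%) had 4 such runs.

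Loops of 1 nucleotide were the most common class. Of 1470 loops between runs, 496 (33.7%) were 1 nt long, and the numbers of loops of 2 to 7 nt were 192, 206, 169, 146, 133 and 128 in turn. Adenine made up 37.7% of the loop bases and 28.3% of all bases of the members, and uracil 29.6% against 27.3%. Cytosine made up 16.4% of the loop bases against 21.5%. Guanine is limited in the loops by the way a run is defined. Loops of 1 to 3 nt throughout 4 neighbouring runs were found in 167 members and in 173 records on the complement. Runs of at least 4 G throughout were found in 37 members and in 42 records on the complement.

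**Figure D2:**
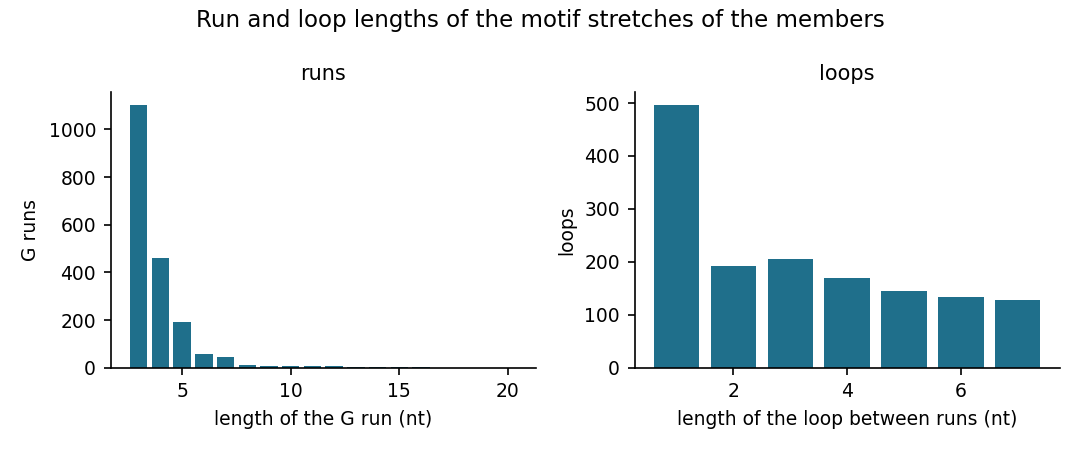
Number of G runs by run length (left, nucleotides) and number of loops by loop length (right, nucleotides) in the motif stretches of the 426 members. Runs of 3 G (1102 of 1920) and loops of 1 nt (496 of 1470) were the most frequent.

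The members did not share 1 common motif sequence. The 450 stretches had 418 different sequences, 30 of these occurred in at least 2 members, and no sequence occurred in more than 3. A unit of 3 to 8 nt repeated at least 4 times in tandem was found in the stretches of 9 members. GGGA was the unit in 5 of them, with 9 copies in TCONS_00101665 and 5 in TCONS_00118717. The vertebrate telomere unit, a known quadruplex former, was not found 3 times in tandem on the deposited strand of any of the 8040 records, and it was found so on the complement of 3. The GGGGCC unit, known from repeat expansions in motor neuron disease, was not found 3 times in tandem on either strand of any record.

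Some members shared sequence with each other. When records were joined by any exact stretch of 50 bases, the 8040 records fell into 6059 groups, and 371 of these held a member. Of the members, 271 shared such a stretch with no other record (63.6%, interval 58.9 to 68.0), against 4951 of all 8040 records (61.6%). There were 33 groups with at least 2 members, and they held 88 members. With a stretch of 100 bases there were 30 such groups with 61 members. The group with the most members held 21 of them among 347 records linked in a chain, and with 100 bases no group held more than 3 members. Most members of that group had unlike motif stretches, and TCONS_00243708, for example, had GGGagaaGGGaGGGauuacGGG. Only TCONS_00191892 and TCONS_00199401 (GGGGGGGGaGGGGGuGGGuuGGGaaaGGGG) and TCONS_00197204 and TCONS_00199070 (GGGGcaGGGGuGGGGuGGGG) had a stretch in common. Part of a stretch was also common to TCONS_00088198 and TCONS_00194169 of that group, though their whole stretches differed. A stretch of 50 bases shared with the complement of another record was found in 18 of 426 members (4.23%) and in 249 of 8040 records (3.10%).

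The stretches lay more often toward the start of the deposited sequences than toward their end. Start and end are those of the sequence as deposited, and need not be the 5′ and 3′ ends of the RNA. The midpoint of the first stretch of a member had a median relative position of 0.430 (95% interval of the median 0.386 to 0.471, quartiles 0.190 and 0.681). Here 0 is the start and 1 the end of the deposited sequence. For the complement motif, read along the same records, the median was 0.529. Over 3 equal parts of the record, the 450 stretches numbered 173, 153 and 124 from the start, and the 446 stretches of the complement motif 125, 152 and 169. Of 10 equal parts, the first held 69 stretches of G runs (15.3%) and the last 23 (5.11%). The complement motif gave the mirror image, with 29 (6.50%) in the first part and 69 (15.5%) in the last.

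The excess was largest in the outermost 50 nt. In 46 records a stretch of G runs began in the first 50 nt, or 5.72 per 1000 records, whereas the next windows of 50 nt held 23, 16 and 24. The complement motif, which appears as C runs on the deposited strand, ended in the last 50 nt of 47 records, and the windows before held 21, 15 and 13. The last 50 nt held a G stretch in 13 records, and the first 50 nt held a C stretch in 12. Going inward, the next windows of 50 nt held 3, 14 and 14 G stretches from the end, and 14, 18 and 16 C stretches from the start. Beyond the outermost 50 nt, G stretches thus stayed more frequent near the start in each window. C stretches were more frequent near the end only in the first of these windows. A G stretch began at the very first base of 10 records, and a C stretch ended at the very last base of 9, while the opposite cases occurred in 1 record each. The same held when only the longest record of each sharing group was kept, with 36 G stretches and 10 C stretches in the first 50 nt and 10 G and 36 C stretches in the last. Above 45% GC the first 50 nt held 20 G and 8 C stretches, and below it 26 and 4. The cause of this placing was not tested.

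**Figure D3:**
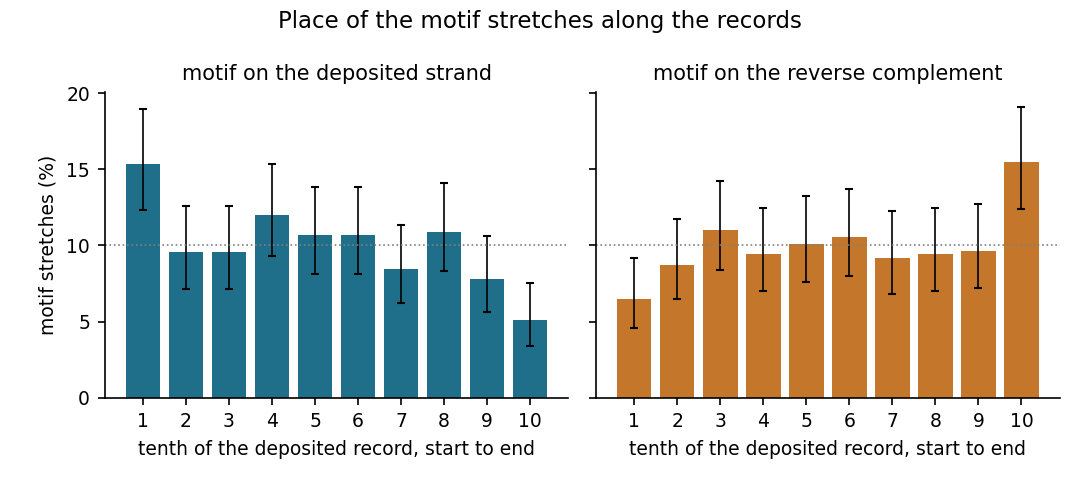
Place of the motif stretches along the records, in 10 equal parts from the start to the end of the deposited sequence (horizontal axes). Values are percent of all stretches with 95% intervals, for the motif as deposited and for the complement motif. The dotted line at 10% is an even spread. The first part held 15.3% of the G stretches and the last part 15.5% of the complement stretches.

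Most motif guanines were paired in the deposited structures, which were computed without a quadruplex term. Of 7447 G in the runs of the motif stretches, 6131 were paired (82.3%, interval 81.4 to 83.2). This was above the share for all G of the members (75.3%), but it was the share of any G run. Runs of at least 3 G outside the motif stretches of the same members were paired at 82.2% (21864 of 26592), and G runs of records without the motif on either strand at 82.6%. Within a member, motif G were paired more often than all of its G in 333 members and less often in 93. Against its own other G runs, the motif was paired more often in 229 members, less often in 195 and equally in 2. The loop bases of the motif were paired at 65.9%. The interval on the share of paired motif G treats each base as independent, which neighbouring bases of a stem are not.

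C runs were paired far less often than G runs. In the C runs of the complement motif, 3838 of 7440 C were paired (51.6%), and 57.2% in other C runs of the same records. The difference between G and C was not particular to the motif. In records without the motif on either strand, C runs were paired at 56.8% and all C at 59.7%. For G, the same records had 82.6% and 75.9%. Every one of the 3838 paired C of the complement motif stood opposite G, the only partner the model gives to C. Of the paired motif G, 4807 (78.4%) stood opposite C and 1324 (21.6%) opposite U, as a wobble pair. Counting runs, 1070 of 1920 G runs were wholly paired (55.7%), 802 partly (41.8%) and 48 wholly unpaired (2.50%). Of 1906 C runs of the complement motif, 537 were wholly paired (28.2%) and 477 wholly unpaired.

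**Figure D4:**
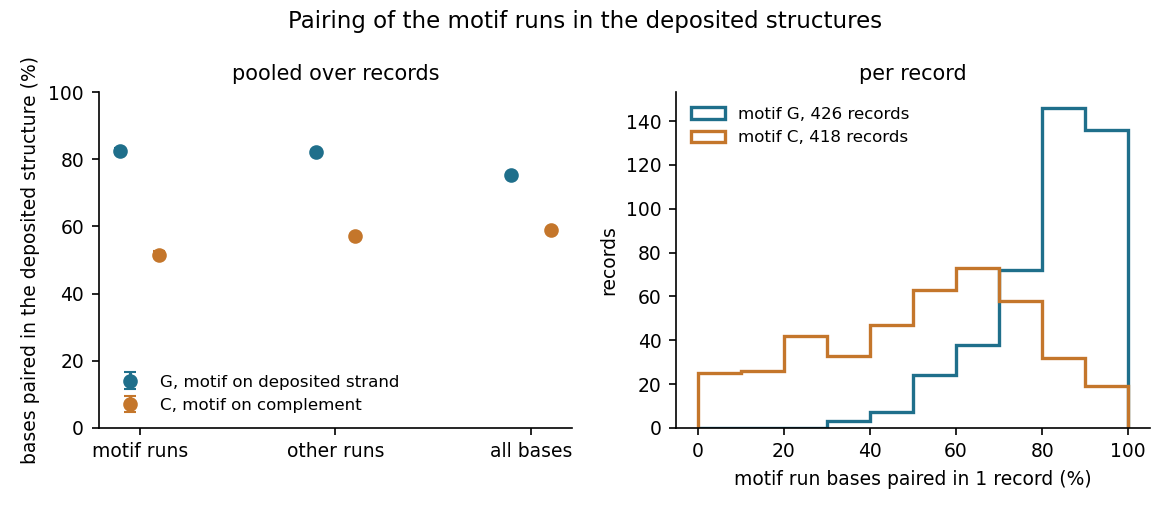
Share of bases paired in the deposited structures, by kind of base (left, percent, pooled over records with Wilson 95% intervals), and the share per record for the motif G of members and the motif C of complement-motif records (right). Motif G were at 82.3% and other G runs of the same members at 82.2%, whereas motif C were at 51.6%.

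Members differed widely in how far the motif was tied up in stems. The share of paired motif G had a median of 85.5% per member, with an upper quartile of 92.3%, and ran up to 100%. All motif G were paired in 41 members, and in 0 members were all of them unpaired. The lowest shares were those of TCONS_00155990 (6 of 20 G), TCONS_00100063 (6 of 18) and TCONS_00133689 (7 of 18). At the other end, TCONS_00213647 and TCONS_00217132 had 25 of 25 G paired and shared the same 44-nt stretch, and TCONS_00153369 had 22 of 22. Partners were mostly far away in the sequence. The median distance to the partner was 245 nt (quartiles 80 and 564, longest 6360), 28.6% of partners were within 100 nt and 43.5% lay beyond 300 nt.

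Members had slightly lower folding energies than their GC content would give. The deposited free energy per 100 nt had a median of -31.4 kcal/mol in members and -27.9 in all records. Relative to a linear fit of this energy on GC content over all records, with a slope of -0.691 kcal/mol per percent GC, the median was -1.01 in members, -0.0423 in complement-motif records and -0.167 in records with neither. Members lay below the fit in 311 of 426 cases (73.0%), and all records in 4389 of 8040 (54.6%). The median share of paired bases was 60.2% in members and 58.9% in all records.

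When each member was folded again with a program that allows a quadruplex, 238 of 426 (55.9%, interval 51.1 to 60.5) took one on the motif in the structure of lowest free energy. Another 33 took one elsewhere only, and 155 took none. Over the whole record, a quadruplex was taken anywhere by 246 of the 388 records with the motif on the deposited strand only (63.4%, interval 58.5 to 68.0), and by 52 of the 380 with the motif on the complement only (13.7%, 10.6 to 17.5), folded as a comparison chosen after seeing the data. The latter records have no 4 neighbouring G runs on the folded strand, so this difference is fixed in large part by the rule and is only a description. In members with a quadruplex on the motif, the energy of the whole record fell by a median of 11.5 kcal/mol against the same fold without the term (quartiles -19.7 and -5.11). Such a fall includes any quadruplex elsewhere in the record. The largest fall was -57.8 kcal/mol, for TCONS_00089612, which holds the run of 20 G, followed by TCONS_00101665 with its GGGA repeat (-54.3). At least 36.9% of all motif G stood in tetrads in these structures. The count appears to leave out a base of each quadruplex, so this share is a lower bound. These energies come from a model of RNA alone, and the fold was not measured.

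Short loops and long runs went with the quadruplex. It was taken in 142 of 167 members with 4 runs joined by loops of 1 to 3 nt (85.0%, interval 78.8 to 89.6) and in 96 of the other 259 (37.1%, 31.4 to 43.1). With 4 runs of at least 4 G it was taken in 36 of 37, and in 202 of the other 389 (51.9%). Since the program scores run and loop length, these differences follow from its rules and are a description. The share also differed with the pairing in the deposited structure. Both folds come from similar energy models of the same sequences, and a quadruplex is taken only where it lowers the energy. This difference too therefore follows in part from the models and is a description. The quadruplex was taken in 66 of 95 members with under 75% of their motif G paired (69.5%, 59.6 to 77.8), in 172 of the other 331 (52.0%, 46.6 to 57.3), and in 11 of the 41 in which all were paired (26.8%). The energy of TCONS_00155990, the member with the lowest share, changed by -48.1 kcal/mol, while TCONS_00213647, TCONS_00217132 and TCONS_00153369, with all motif G paired, took none. The share varied less with GC content, at 58.3% under 40% GC, 58.2% from 40 to 50% and 48.5% at 50% or more.

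**Figure D5:**
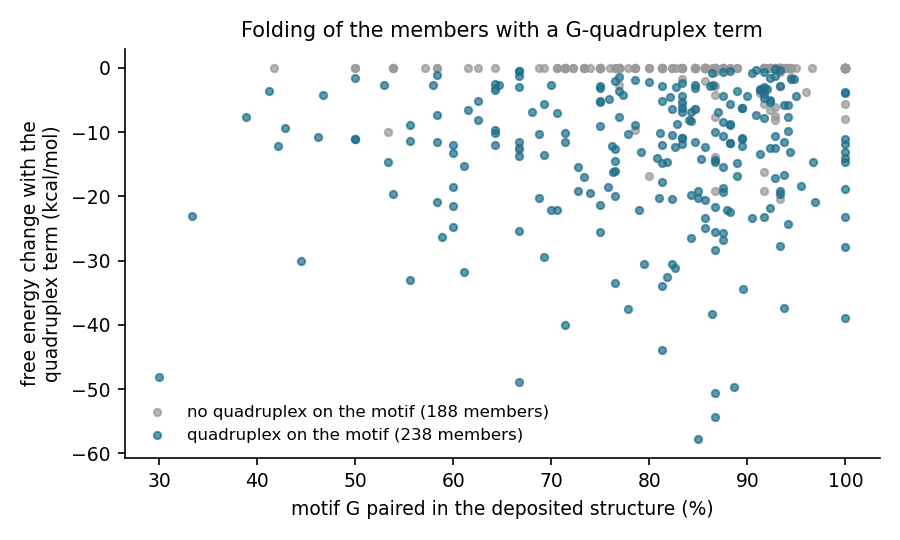
Change in free energy of the whole record when the folding program allowed a quadruplex (vertical axis, kcal/mol). The horizontal axis is the share of motif G paired in the deposited structure (percent). There is 1 point per member, marked by whether the structure held a quadruplex on the motif. The falls reached -57.8 kcal/mol, and 11 of the 41 members at 100% paired took a quadruplex.

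Members were matched to known gene starts more often than records without the motif on either strand. Their intervals lay apart at 45% GC or more and overlapped below it. The intervals of members and of complement-motif records overlapped, and the complement-motif records were not split by GC content. RefSeq promoter windows of the GRCm38.p6 build, which run from 250 bases before to 50 after each gene start, were searched for exact matches of at least 30 bases that spanned the whole overlap of record and window. Such a match was found for 21 of 426 members (4.93%, interval 3.25 to 7.42). It was found for 14 of 418 complement-motif records (3.35%, 2.01 to 5.54) and for 109 of 7234 records with neither (1.51%, 1.25 to 1.81). With matches of at least 50 bases the numbers were 18 (4.23%, 2.69 to 6.58), 11 (2.63%, 1.48 to 4.65) and 77 (1.06%, 0.853 to 1.33). Members were also longer and higher in GC content than records with neither, and the part of length in these counts was not tested. Among records of 45% GC or more, matches of at least 30 bases were found for 19 of 226 members (8.41%, 5.45 to 12.8) and 59 of 1826 records with neither (3.23%, 2.51 to 4.15), and matches of at least 50 bases for 16 of 226 members (7.08%, 4.40 to 11.2) and 46 of 1826 records with neither (2.52%, 1.89 to 3.34). Under 45% GC, 2 of 200 members had a match at either minimum (interval 0.275 to 3.57%). Of the 5408 records with neither in that class, 50 had a match of at least 30 bases (0.925%, 0.702 to 1.22) and 31 of at least 50 (0.573%, 0.404 to 0.812), so the intervals overlap at both. The windows themselves held the motif often. Of 32817 windows of 300 nt, 3439 (10.5%) held it on the gene's strand and 3068 (9.35%) on the opposite strand, 6105 (18.6%) on at least 1.

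All 102 records with a match of at least 50 bases ran along the plus strand of the genome, the 18 members among them, whichever strand the gene was on. Of those 18 members, 11 lay on the strand of the gene only, 6 on the opposite strand only and 1 on both, for 2 genes. For these records the deposited sequence therefore followed the genome and not the gene. At the minimum of 30 bases, 136 records ran along the plus strand and 4, none of them a member, along the minus strand. The strand from which each record was transcribed cannot be told from this, so the motif as deposited may stand on the RNA or on its complement.

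In 5 members the motif itself lay inside the window of a gene start. The stretches below are those 5, with GRCm38.p6 positions, and all run along the plus strand.
TCONS_00045864 (Zdhhc22, chr12:86990901-86990921): GGGuGGGGaguGGGGuGGGGG
TCONS_00155201 (Sgms2, chr3:131490698-131490716): GGGGuGGGGcaGGGaaGGG
TCONS_00215149 (Cfap46, chr7:139683894-139683920): GGGaguaGGGaGGGGaaGGGGGcGGGG
TCONS_00048681 (Gm34081, chr12:109540320-109540346): GGGcagaaauGGGuccuuGGGaaaGGG
TCONS_00101411 (Gm41559, chr17:29889764-29889783): GGGGaGGGGcguGGGcuGGG

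The first 3 of these genes code for proteins and lie on the minus strand, so that the records run opposite to them. Zdhhc22 belongs to a family of enzymes that attach palmitate to proteins, and the midpoint of the motif lay 81 bases before 1 of its annotated starts and 333 before another. Sgms2 is a sphingomyelin synthase, with the motif 47 bases before 1 annotated start and 736 bases downstream of another. Cfap46 is a component of the axoneme of cilia, with the motif 92 bases before its start. Seen from these genes, the G runs lie on the template strand. TCONS_00048681 runs opposite to Gm34081, with the motif 184 bases before that start. The whole record of 606 nt spans chr12:109540182-109540787, and its last 42 bases match the window of Meg3, a maternally expressed imprinted lncRNA on the plus strand that is abundant in brain. TCONS_00101411 runs along the same strand as Gm41559.

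In another 6 members the motif lay outside the window but within 300 nt of it. The distances were 54 nt for TCONS_00196027 beside Cadps2, which acts in the release of dense-core vesicles, 74 nt for TCONS_00105118 beside Gm30794, 115 nt for TCONS_00166562 beside Gm46875, 204 nt for TCONS_00226972 beside Gab1, an adaptor of receptor tyrosine kinases, 225 nt for TCONS_00225215 beside Gm31638 and 266 nt for TCONS_00250792 beside Gm15155. The matches of TCONS_00196027 and TCONS_00226972 were 40 and 49 bases long and so fall short of the stricter minimum. The member with the most stretches, TCONS_00197204, spans chr6:126594764-126602301 and runs along the strand of Gm33496. No member held a whole microRNA hairpin of RefSeq.

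A list of 20 new lncRNAs called differentially expressed between control and SAH, the extremes in both directions of a longer list that was not used here, held 3 members, whose expression was not analysed here. For 2 of them the values are given, the other is not reported here, and so these do not stand for the whole. They lie outside the rule for named records and were looked at after their values had been seen. The list was chosen on these samples and is too short to set against the 5.30% of all records.
TCONS_00134940: GGGGGcagacGGGcgaGGGGuGGG
TCONS_00227229: GGGaGGGuuuggaGGGaagagaGGG
TCONS_00134940 had 13 of 15 motif G paired and took no quadruplex. TCONS_00227229 had 8 of 12 paired, and its energy changed by -0.52 kcal/mol with a quadruplex.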

How the data were processed

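Per the labels, cortex RNA was fragmented, cDNA strands were marked with deoxy-UTP and reads were aligned with TopHat2 to mm10. After removal of ribosomal RNA, the authors kept transcripts over 200 bp without coding potential that matched no known transcript. The deposited values are an RNA sequence, a dot-bracket structure and a free energy in kcal/mol per record, pooled over the 6 libraries. They are not counts, and the depth per library is unknown. The assembler and the folding program are not given in the sources used here. The deposited energies equalled those of an older set of Turner parameters with dangling-end setting 1 within 0.01 kcal/mol for 426 of 426 members.

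The motif was searched with a pattern read from the start of the sequence. Each match took in all further runs within the loop limit, and matches that did not overlap were counted as separate stretches. Members were folded with ViennaRNA 2.7.2 (its default Turner parameters, dangling-end setting 2) with and without its quadruplex term. A quadruplex counted as on the motif when any of its tetrad bases lay in a motif stretch. G4Hunter scores are means over 25 nt. Python 3.11.15, numpy 2.4.6, scipy 1.17.1 and matplotlib 3.10.9 were used, and the scripts were tested on simulated data. Promoter windows came from RefSeq, GRCm38.p6. No genome was used, so only records that overlap a window were given a position here. The positions and strands that the study lists for some new lncRNAs were not used.

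The members and lists were chosen with earlier results of these data known. Named records were the extremes of stretch number, run length, G4Hunter score, pairing and energy change, the largest sharing group, and members with the motif in or within 300 nt of a promoter window. Sequences of records whose identifiers fall between the last placed on chromosome 17 and the first on 19 are not printed. Some sequences, and the results that need them, are not reported here.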

Additional observations from a re-analysis of the deposited data

How the results depend on the processing

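The share of records with the motif depended on the pattern. Against 5.30%, it was 9.79% with loops of 1 to 12 nt, 2.08% with loops of 1 to 3 nt, 0.460% with runs of at least 4 G, 66.5% with runs of at least 2 G, 23.6% at a G4Hunter score of at least 1.5 and 47.8% at 1.2. Requiring 4 runs set apart by another base, a setting chosen after seeing the data, gave 4.66%. The balance of strands stayed between 46.8% (runs of at least 4 G, the only setting whose value left the interval of the main one) and 52.5%. The interval excluded an even split in 3 settings, runs of at least 2 G (52.5%, 50.7 to 54.3) and G4Hunter scores of at least 1.5 (52.3%, 50.3 to 54.3) and 1.2 (51.8%, 50.1 to 53.5), each slightly toward the deposited strand. Folded again with the program's default Turner parameters, 85.1% of motif G were paired against 82.3%. Folding the motif with 50 nt on either side alone gave a quadruplex in 75.6% of members against 55.9%. The other 24 alternatives, among them the longest record of each sharing group, an older set of Turner parameters and those chosen after seeing the data for the outermost 50 nt and for matches of at least 50 bases, moved no value beyond the interval of its main value. No paired analysis was possible because the records carry no value per library, and for the same reason no replicate could be left out. The depth of the libraries sets which transcripts were assembled and where they end, and it is not known from these records.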
